A study of Mus musculus with 12 samples.

Results

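The oxidative phosphorylation genes are the nuclear genes for the subunits of the respiratory chain and the ATP synthase. They were chosen by symbol, as those that start with Nduf, Uqcr, Cox4, Cox5, Cox6, Cox7, Cox8 or Atp5 together with Sdha, Sdhb, Sdhc, Sdhd and Cyc1. The rule found 85 of the 12393 genes that the arrays name by probe sets with 1 gene symbol. Of these, 34 carry complex I symbols, 5 are complex I assembly factors (Ndufaf genes), 4 encode complex II, 9 complex III, 16 complex IV and 17 the ATP synthase.

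RNA was profiled on Affymetrix arrays from αTC1 and βTC3 (aTC1 and bTC3 in the labels), mouse lines from tumors of glucagon-producing alpha cells and insulin-producing beta cells. In both lines SV40 large T antigen drove the tumor, under the glucagon promoter in αTC1 and an insulin promoter in βTC3, and each line stands for 1 tumor and not for alpha or beta cells in an islet. The 4 groups of 3 biological replicates were alpha cells with 3.3 µM GW8510, alpha cells with 0.1% DMSO alone, beta cells with 3.3 µM GW8510 and beta cells with 0.1% DMSO alone, all taken on day 5, and GW8510 was itself dissolved in DMSO. Treated arrays were grouped by their titles and compound labels, which name GW8510 throughout, whereas the source names of replicates 2 and 3 read GW8511 and GW8512 in both lines. The culture conditions given with the βTC3 samples name only αTC1, so that those of βTC3 are not known here. GW8510 is a small molecule described as a putative CDK2 inhibitor.

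Complex I and complex II pass electrons from NADH and from succinate to ubiquinone, complex III passes them on to cytochrome c, and complex IV passes them to oxygen. The proton gradient that complexes I, III and IV build drives the ATP synthase. In beta cells the ATP made this way closes potassium channels of the plasma membrane and so couples glucose to insulin secretion, and in alpha cells it takes part in the control of glucagon secretion. Most subunits are encoded in the nucleus, and complexes I, III and IV and the ATP synthase also hold subunits encoded by mitochondrial DNA, which the symbol rule does not take in.

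The lines were set apart clearly by beta cell markers and less so by alpha cell markers. The summed intensity of 6 beta cell markers was 2950 to 3249 with GW8510 and 2338 to 2469 with DMSO in alpha cells, against 57022 to 59068 and 53647 to 54977 in beta cells. That of 4 alpha cell markers (Gcg, Ttr, Irx1 and Irx2) was 42298 to 42576 with GW8510 and 31733 to 32826 with DMSO in alpha cells, against 31612 to 33252 and 26278 to 26971 in beta cells. Glucagon (Gcg) was at the upper limit of the scale, 20000, on all alpha arrays and averaged 12041 with GW8510 and 6420 with DMSO in beta cells, while Ttr averaged 19884 and 8351 in alpha cells and was at 20000 on all beta arrays. Somatostatin (Sst), of delta cells, was at 65.4 and 69.0 in alpha cells and at 20000 and 17819 in beta cells. Array medians lay between 173.7 and 199.95, and the highest was that of beta GW8510 replicate 3. The ratio of the 3′ to the 5′ actin control probe sets, a measure of RNA integrity, was 1.47 to 1.57 in alpha GW8510 arrays. In the other groups the 3′ probe set was at the limit, so that the ratios were at least 1.36 to 1.44 in alpha DMSO, 1.15 to 1.22 in beta GW8510 and 1.17 to 1.18 in beta DMSO arrays and cannot be set against each other. The part of the markers and array medians in the results was not tested.

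Probe sets of the oxidative phosphorylation genes read bright, with a median intensity of 6360 over all arrays, against 274 over all genes tested, and 72 members averaged above 1000. Brightness also depends on the probes, so that it ranks no gene's RNA against another's and bears here only on the limits of the scale. Intensities above 15000 were reached by 13 members on at least 1 array, and 4 of these reached 20000. Cox6a1, a complex IV subunit, was at 20000 on all 12 arrays by its brightest probe set, the one used here, and was not compared. Its other probe set, read below the limit, gave log2 fold changes with GW8510 of 0.27 in alpha cells (adjusted p = 0.000879 by limma over all probe sets) and 0.12 in beta cells, and between lines 0.16 with GW8510 and 0.01 with DMSO. Cox5b, another complex IV subunit, was at 20000 on all alpha arrays, so that this probe set gave no response in alpha cells and only a lower bound for the difference between lines. The 3 other bright probe sets of Cox5b gave responses of 0.12, 0.16 and 0.18 in alpha cells, and the lowest and the highest of these passed in the fit over all probe sets (adjusted p = 0.0228 and 0.000228 by limma). In beta cells the same 3 gave 0.03, 0.16 and 0.13, of which only the last passed in that fit (adjusted p = 0.00316 by limma). The probe set used gave 0.11 in beta cells, which passed in that fit (adjusted p = 0.0421 by limma) but not in the fit over genes (adjusted p = 0.109). Atp5g3, which encodes subunit c of the ATP synthase, and Uqcrb, a complex III subunit, were at 20000 on the 3 alpha GW8510 arrays alone, and were left out of the difference between the responses.

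**Figure D1:**
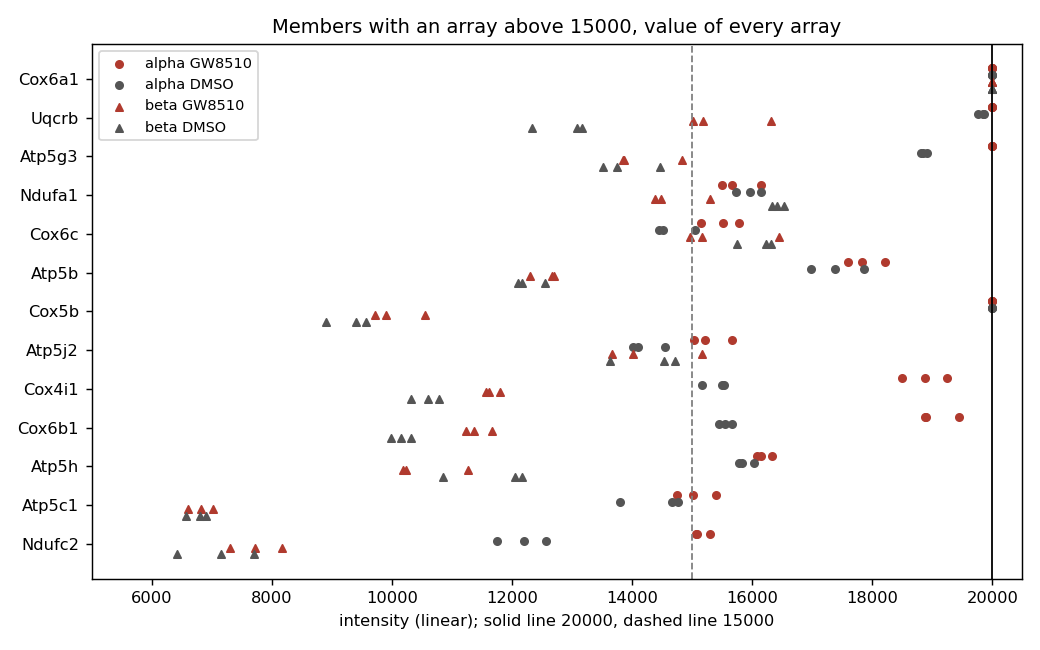
Intensity of the 13 members with an array above 15000, with 1 mark per array (horizontal axis, linear intensity; circles, alpha cells; triangles, beta cells; red, GW8510; grey, DMSO). Cox6a1 lies on the 20000 line in all groups and Cox5b in both alpha groups, while most of the other members lie below it.

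The promoters of 4 members are shown because these genes stood apart in the comparisons that follow: Uqcrc1 and Ndufb6 rose with GW8510 in alpha cells, Atp5g2 fell in both lines and Cox7a1 rose in both. Each window runs 5′ to 3′ from 250 bases before to 50 bases after the start of the gene, in RefSeq's sequence for build GRCm38.p6, and lies at chr9:108936398-108936697 on the plus strand for Uqcrc1, chr4:40279372-40279671 on the minus strand for Ndufb6, chr15:102670998-102671297 on the minus strand for Atp5g2 and chr7:30183921-30184220 on the plus strand for Cox7a1. Capitals mark matches, on either strand, to 3 motifs linked to nuclear genes of mitochondrial proteins: NRF1 (the letters GCGC, any base, then TGCGC), the ETS core bound by GABP (CCGGAAG) and YY1 (AAGATGGC).
Uqcrc1: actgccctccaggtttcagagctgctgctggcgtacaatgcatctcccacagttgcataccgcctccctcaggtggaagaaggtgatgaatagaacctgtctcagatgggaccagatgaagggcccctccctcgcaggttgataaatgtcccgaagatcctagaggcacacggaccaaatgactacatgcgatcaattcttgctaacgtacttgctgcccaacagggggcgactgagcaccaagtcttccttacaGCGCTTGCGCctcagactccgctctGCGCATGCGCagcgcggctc
Ndufb6: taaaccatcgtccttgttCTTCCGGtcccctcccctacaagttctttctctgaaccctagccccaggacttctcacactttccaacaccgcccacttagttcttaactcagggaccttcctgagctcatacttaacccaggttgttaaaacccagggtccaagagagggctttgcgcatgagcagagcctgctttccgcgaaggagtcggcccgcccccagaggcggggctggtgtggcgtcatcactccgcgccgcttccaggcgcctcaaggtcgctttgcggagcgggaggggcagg
Atp5g2: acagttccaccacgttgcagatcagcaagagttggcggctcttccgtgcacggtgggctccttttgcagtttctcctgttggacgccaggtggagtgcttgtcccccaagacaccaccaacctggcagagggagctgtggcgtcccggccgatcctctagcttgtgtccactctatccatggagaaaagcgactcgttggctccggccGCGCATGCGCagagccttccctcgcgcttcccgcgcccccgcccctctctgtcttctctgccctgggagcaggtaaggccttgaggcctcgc
Cox7a1: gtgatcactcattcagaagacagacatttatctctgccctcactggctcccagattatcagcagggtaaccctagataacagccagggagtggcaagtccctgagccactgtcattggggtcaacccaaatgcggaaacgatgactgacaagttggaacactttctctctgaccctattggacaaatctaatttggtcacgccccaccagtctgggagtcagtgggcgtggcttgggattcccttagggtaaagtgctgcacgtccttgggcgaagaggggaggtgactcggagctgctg
The Uqcrc1 window held 2 NRF1 matches, that of Atp5g2 held 1, that of Ndufb6 held 1 ETS match on the opposite strand and that of Cox7a1 held none of the 3 motifs. Windows were at hand for 70 of the 85 members, 75 windows in all. The NRF1 motif was in 22.7% of them, against 4.6% of all 32851 windows of the same length, the ETS motif in 24.0% against 8.86%, and YY1 in 12.0% against 2.75%. YY1 matches were in 6 complex I and 3 ATP synthase genes and in no window of the other complexes. Among the members that rose with GW8510 in alpha cells, 22.2% of 27 windows held NRF1, close to the 22.0% of 41 windows among those that did not pass the test. The shares were 29.6% and 22.0% for ETS and 3.7% and 17.1% for YY1, and the differences were not tested. A match of letters is no measurement of binding.

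To ask how the lines differed before treatment, alpha and beta cells with DMSO were compared gene by gene by limma over 12251 genes, with Benjamini-Hochberg adjustment over all genes tested and a call at an adjusted p under 0.05. Oxidative phosphorylation genes were mostly brighter in alpha cells: 58 of 84 members were higher (69.0%), against 29.2% of all genes tested, and 8 were lower (9.52%), against 27.1%. The members' median log2 fold change was 0.39, against 0.05 over all genes. Among 372 other genes within the middle range of the members' intensities, 34.9% were higher in alpha cells and 45.7% lower, with a median of -0.09. All alpha arrays lay above all beta arrays for 63 members (35.8% of all genes), and all below for 11 (30.5% of all genes).

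The same comparison with GW8510 in both lines gave 66 members higher in alpha cells (78.6%), against 27.6% of all genes, and 4 lower (4.76%), against 30.5%. The members' median was 0.51, against 0.00 over all genes. The alpha arrays lay entirely above the beta arrays for 69 members (28.2% of all genes) and entirely below for 5 (31.3%). Without the 13 members near the upper limit the counts were 57 higher and 4 lower of 72 with GW8510, and 49 higher and 7 lower of 72 with DMSO.

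**Figure D2:**
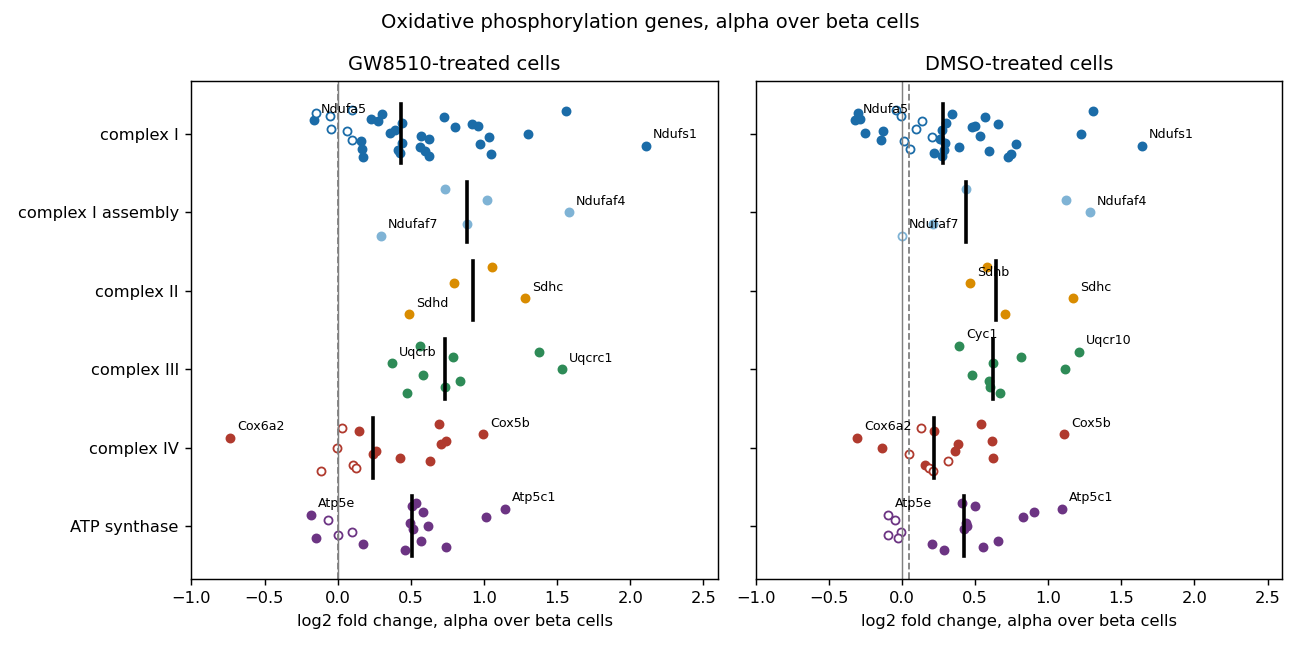
Log2 fold change of each member, alpha over beta cells (horizontal axis), by complex (rows), with GW8510 (left) and with DMSO (right). Filled points passed the test, open points did not, black bars are medians of a complex and the dashed line is the median of all genes; all points of complexes II and III lie right of 0 in both panels.

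Complex I, which oxidizes NADH, held the gene with the widest difference, Ndufs1, but not the widest median. Medians of the log2 fold change with DMSO and with GW8510 were 0.28 and 0.43 in complex I. They were 0.65 and 0.92 in complex II, 0.62 and 0.73 in complex III, 0.22 and 0.24 in complex IV and 0.42 and 0.51 in the ATP synthase. With DMSO 21 of the 34 genes with complex I symbols, Ndufa4 included, were higher in alpha cells (61.8%, against 29.2% of all genes) and 6 lower (17.6%, against 27.1%). With GW8510 27 were higher (79.4%, against 27.6%) and 1 lower (2.94%, against 30.5%). Ndufs1, a core subunit that carries iron-sulfur clusters, read 5002, 5235 and 5330 in alpha GW8510 arrays, 4146, 4136 and 4212 in alpha DMSO arrays, 1146, 1292 and 1177 in beta GW8510 arrays and 1396, 1277 and 1335 in beta DMSO arrays. All its alpha arrays thus stood far above all its beta arrays, and the log2 fold change between lines was 2.11 ± 0.06 (SE; 4.31-fold) with GW8510 and 1.64 ± 0.06 (3.12-fold) with DMSO, at adjusted p-values of 2.24e-11 and 2.1e-10 by limma. Ndufa10, an accessory subunit of the matrix side, read 7733 to 7925 in alpha DMSO arrays against 3099 to 3277 in beta DMSO arrays, a log2 fold change of 1.31, and Ndufb3, an accessory subunit of the membrane arm, read 4377 to 4410 against 1824 to 1972, a log2 fold change of 1.22.

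The nuclear core subunits of complex I among the members were all higher in alpha cells under both conditions. Beside Ndufs1 these were Ndufv1, which binds the FMN that takes electrons from NADH, with log2 fold changes of 1.05 with GW8510 and 0.75 with DMSO, and Ndufv2, Ndufs3, Ndufs7 and Ndufs8, which hold iron-sulfur clusters or the quinone site and lay between 0.43 and 0.63 with GW8510 and between 0.22 and 0.60 with DMSO. For Ndufs8, 4 other probe sets gave 0.16 to 0.29 with DMSO, and the dimmest gave -0.05, which did not pass. The 6 genes with complex I symbols that were lower in alpha cells with DMSO had log2 fold changes from -0.13 to -0.32. They were Ndufa4, now counted with complex IV, and the accessory subunits Ndufa5, Ndufa12, Ndufb2, Ndufb8 and Ndufb11. The calls of Ndufb8 and Ndufb11 were each lost with arrays centred on their medians and without any 1 of 5 of the 6 DMSO arrays. The sign of Ndufa12 depended on the probe set, since the probe set used gave -0.30 while the other bright ones gave 0.60 and 0.20.

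Assembly factors bring complex I together without being part of it. Ndufaf4 averaged 2874 ± 58.8 in alpha and 965 ± 96.1 in beta cells with GW8510, and 2728 ± 275 in alpha and 1120 ± 118 in beta cells with DMSO (SD, n = 3 each), log2 fold changes of 1.58 and 1.28. Ndufaf3 was also more than 1 log2 unit higher in alpha cells under both conditions. Ndufaf7, a methyltransferase that acts on complex I, did not pass the test with DMSO (0.00) and was higher with GW8510 (0.30).

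All 4 genes of complex II, the succinate dehydrogenase of the TCA cycle, and all 9 of complex III were higher in alpha cells under both conditions. Sdhc, a membrane anchor of complex II, differed most within its complex, at 2618 to 2727 in alpha against 1034 to 1135 in beta cells with GW8510 and 2716 to 2866 against 1220 to 1268 with DMSO. Within complex III the widest differences with DMSO were those of Uqcr10, a small subunit, with a log2 fold change of 1.21, and of Uqcrc1, a core protein, with 1.12. The value for Uqcrb with GW8510, 0.37, is a lower bound, and its other probe set, which lay below the limit, gave 0.41 with GW8510 and 0.07 with DMSO.

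Of the complex IV genes measured, 9 of 15 were higher in alpha cells with GW8510 (60.0%, against 27.6% of all genes) and 1 lower (6.67%, against 30.5%). With DMSO 8 were higher (53.3%, against 29.2%) and 2 lower (13.3%, against 27.1%). Cox5b was at least 1.99-fold higher in alpha cells with GW8510 and at least 2.15-fold higher with DMSO, since its alpha arrays all read 20000 and its beta arrays 8906 to 10546. Of its other probe sets, 3 were bright and lay below the limit, and gave log2 fold changes of 1.12 to 1.60 with DMSO. Cox6a2, the form of subunit VIa known from heart and skeletal muscle, ran the other way, at 268.8 to 280.4 in alpha against 423.4 to 535.2 in beta cells with GW8510 and 235.1 to 272.4 against 307.9 to 334.4 with DMSO.

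The ATP synthase had 12 of 17 genes higher in alpha cells under both conditions (70.6%, against 27.6% of all genes with GW8510 and 29.2% with DMSO). Atp5c1, the gamma subunit that turns inside the catalytic head, read 13795 to 14764 in alpha against 6570 to 6903 in beta cells with DMSO, a log2 fold change of 1.09. Atp5a1 and Atp5b, the alpha and beta subunits of the catalytic head, differed by 0.41 and 0.50, and the values of Atp5b lay between 12105 and 17861. Atp5e, Atp5j2, Atp5k, Atp5l and Atp5g2 did not pass the test with DMSO, with log2 fold changes between -0.10 and -0.01. Atp5e and Atp5l were lower in alpha cells with GW8510 (-0.19 and -0.15), and neither call held with arrays centred on their medians.

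Next, GW8510 was compared with DMSO within each line, to ask whether these genes moved with the compound. In alpha cells 29 of 83 members rose (34.9%), against 20.3% of all genes tested, and 7 fell (8.43%), against 21.4%, while 47 did not pass. The members' median log2 fold change was 0.08, against 0.03 over all genes. The GW8510 arrays lay entirely above the DMSO arrays for 47 members (26.1% of all genes) and entirely below for 14 (25.6%). In beta cells 12 of 84 rose (14.3%), against 19.8% of all genes, and 18 fell (21.4%), against 14.5%, and the median was -0.02 against 0.07. There the arrays lay entirely above for 23 members (28.5% of all genes) and entirely below for 26 (17.7%). Among the 372 other genes within the middle range of the members' intensities, 29.8% rose and 32.0% fell in alpha cells. In beta cells 26.6% of these genes rose and 24.2% fell, so that the members' share of falls was not above that of genes of like intensity. Without beta GW8510 replicate 3, the array with the highest median, 12 members rose and 23 fell in beta cells. Without beta GW8510 replicate 1 the counts were 10 and 11, and without beta DMSO replicate 1, and also with a replicate block, 9 and 12. After a further quantile normalization 12 rose and 29 fell, so that risen members made up 29.3% of the calls against 40.0%.

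**Figure D3:**
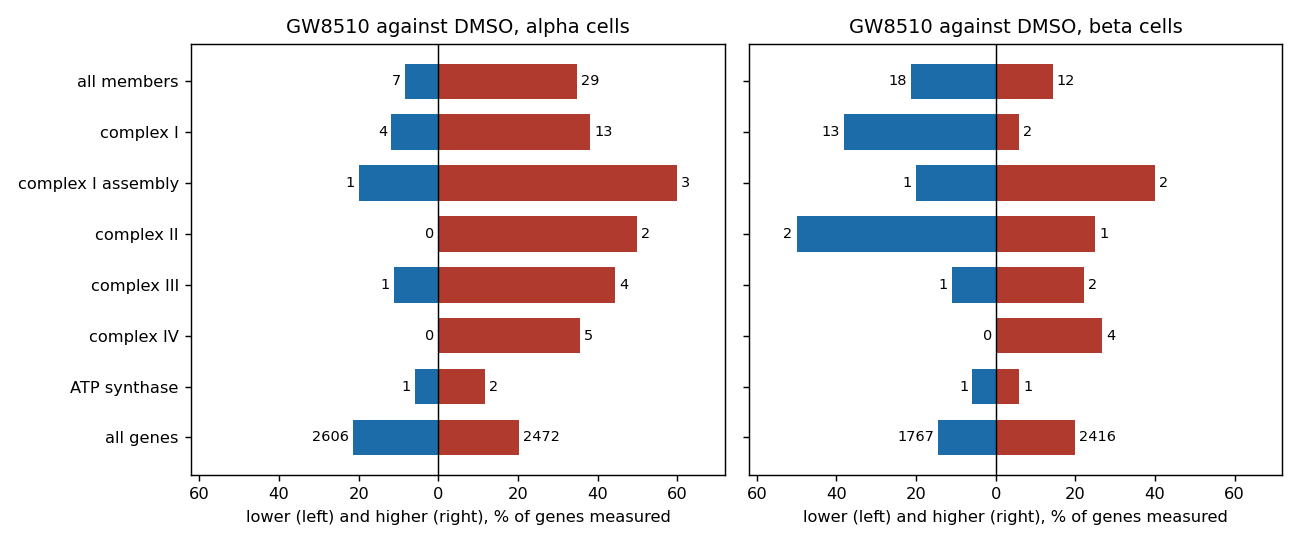
Share of the measured genes that passed the test with GW8510 against DMSO in alpha cells (left) and beta cells (right), lower to the left and higher to the right of 0, with the number of genes beside each bar. Complex I, with Ndufa4 counted in by its symbol, has 13 higher and 4 lower genes in alpha cells and 2 higher and 13 lower in beta cells.

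Genes with complex I symbols, Ndufa4 included, rose more often than they fell in alpha cells, 13 against 4 of 34, with a median of 0.09. These are 38.2% and 11.8%, against 20.3% and 21.4% of all genes. In beta cells they fell more often than they rose, 13 against 2 of 34, with a median of -0.12. These are 38.2% and 5.88%, against 14.5% and 19.8% of all genes. As given above, the count of falls in beta cells over all members varied with the array left out. The largest rise of a complex I subunit in alpha cells was that of Ndufb6, an accessory subunit of the membrane arm, which read 7761, 7616 and 9602 with GW8510 and 5534, 5059 and 5294 with DMSO. The groups did not overlap, although replicate 3 with GW8510 stood above the other treated arrays, and the log2 fold change was 0.65 ± 0.09 (SE; adjusted p = 9.98e-05 by limma). Beta cells read 4136, 3850 and 4162 with GW8510 and 4568, 4986 and 4227 with DMSO, groups that lay apart by little and did not pass the test (-0.18, adjusted p = 0.16). A further bright probe set of Ndufb6 gave 0.57 in alpha cells and -0.01 in beta cells.

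Ndufa4, named for complex I but now counted with complex IV, read 13310, 13973 and 13696 with GW8510 and 8752, 8800 and 9368 with DMSO in alpha cells. The treated arrays were all higher, a log2 fold change of 0.61 ± 0.05 (adjusted p = 1.19e-06 by limma), while in beta cells it was 0.10 and did not pass. With this rise Ndufa4 was lower in alpha than in beta cells with DMSO (-0.28) and higher with GW8510 (0.23). Ndufb2, an accessory subunit, rose in alpha cells (0.40) and fell in beta cells (-0.20), and its difference between lines also turned, to 0.35 with GW8510 against -0.25 with DMSO.

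Ndufs4, an accessory subunit whose loss impairs complex I in mice and in patients, fell in both lines, by 0.24 in alpha and by 0.35 in beta cells on the log2 scale. Its other probe sets gave -0.28 and -0.59 in alpha cells and -0.40 and -0.96 in beta cells. Ndufa2 and Ndufb5, both accessory, also fell in both lines. Ndufv3, an accessory subunit beside the NADH site, fell in alpha cells (-0.18), where it read 9171 to 9650 with GW8510 and 10402 to 10752 with DMSO, and rose in beta cells (0.37), where it read 7896 to 8933 and 6264 to 6577. It was the only member with a fall in alpha and a rise in beta cells, and its fall in alpha cells did not pass with a replicate block, or without replicate 2 or 3 of either alpha group. Among the core subunits Ndufs1, Ndufs3 and Ndufs8 rose in alpha cells and Ndufv1 and Ndufv2 fell in beta cells, with the others not past the test.

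The assembly factors of complex I included the widest changes outside complex IV. Ndufaf1 read 1090, 1202 and 1246 with GW8510 and 673, 696 and 685 with DMSO in alpha cells, and 691, 688 and 746 against 527, 483 and 509 in beta cells. It rose in both lines with no overlap of groups, by 0.78 ± 0.06 in alpha and 0.49 ± 0.06 in beta cells (SE; adjusted p = 8.82e-07 and 9.49e-05 by limma). Ndufaf3 moved the other way in both lines, at 804, 828 and 845 with GW8510 and 1510, 1464 and 1462 with DMSO in alpha cells, and at 395, 382 and 446 against 675, 668 and 694 in beta cells. Its log2 fold changes were -0.84 ± 0.06 and -0.74 ± 0.06 (adjusted p = 3.66e-07 and 3.1e-06). Ndufaf7 rose in both lines (0.55 and 0.26), and Ndufaf5, which modifies the subunit Ndufs7, rose in alpha cells (0.49) with -0.18 in beta cells. The rise of Ndufaf7 in beta cells did not pass without DMSO replicate 1 or 3.

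Within complex II, Sdha, the flavoprotein that oxidizes succinate, rose in alpha cells, at 6049 to 6395 with GW8510 against 4707 to 4990 with DMSO (0.34), and read 2888 to 3063 against 3156 to 3327 in beta cells (-0.13, not past the test). Its iron-sulfur partner Sdhb fell in beta cells by 0.27. Sdhd, a membrane anchor, rose in both lines (0.15 and 0.37). The other anchor, Sdhc, fell in beta cells by 0.18, while a second probe set of it gave 0.16.

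In complex III 4 of 9 genes rose in alpha cells (44.4%, against 20.3% of all genes) and 1, Uqcrq, fell (11.1%, against 21.4%). The fall of Uqcrq (-0.21) lost its call without replicate 3 of either group, GW8510 replicate 2 or DMSO replicate 1. Uqcrc1 rose most, with 8509, 8372 and 8239 in alpha GW8510 arrays against 5713, 5705 and 5956 in alpha DMSO arrays, and its arrays were well apart (0.53 ± 0.05, adjusted p = 2.16e-06 by limma). In beta cells it read 2831, 2864 and 2981 against 2723, 2616 and 2669, which did not pass (0.12). Uqcrfs1, the Rieske iron-sulfur protein, and Uqcrh, the hinge protein beside cytochrome c1, rose in alpha cells (0.36 and 0.24), and Uqcr10 rose in both lines (0.39 and 0.23). Uqcrb rose in beta cells by its brightest probe set (0.27) and not by its other one (-0.16), and in alpha cells its treated arrays were at the limit.

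Complex IV held the widest response of all members. Cox7a1, the form of subunit VIIa known from heart and skeletal muscle, read 950, 994 and 1002 with GW8510 and 348, 360 and 331 with DMSO in alpha cells. In beta cells it read 797, 834 and 828 with GW8510 and 275, 279 and 251 with DMSO. The treated arrays of both lines lay far above their DMSO arrays, with log2 fold changes of 1.50 ± 0.06 (2.84-fold, adjusted p = 2.03e-09 by limma) in alpha and 1.61 ± 0.06 (3.05-fold, adjusted p = 6.05e-09) in beta cells. Cox7a2, the form of most other tissues, read 14020 to 14467 against 12538 to 13440 in alpha cells and 11602 to 12591 against 12342 to 12782 in beta cells, and passed in neither (0.13 and -0.07). Its other bright probe set gave 0.26 in alpha cells and -0.11 in beta cells. In the fit over all probe sets both passed in alpha cells (adjusted p = 0.021 and 0.00051 by limma) and neither passed in beta cells, so that the call of Cox7a2 in alpha cells depended on the fit. Cox7a2l, a related protein that joins complexes III and IV, did not pass either (-0.07 and 0.13).

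**Figure D4:**
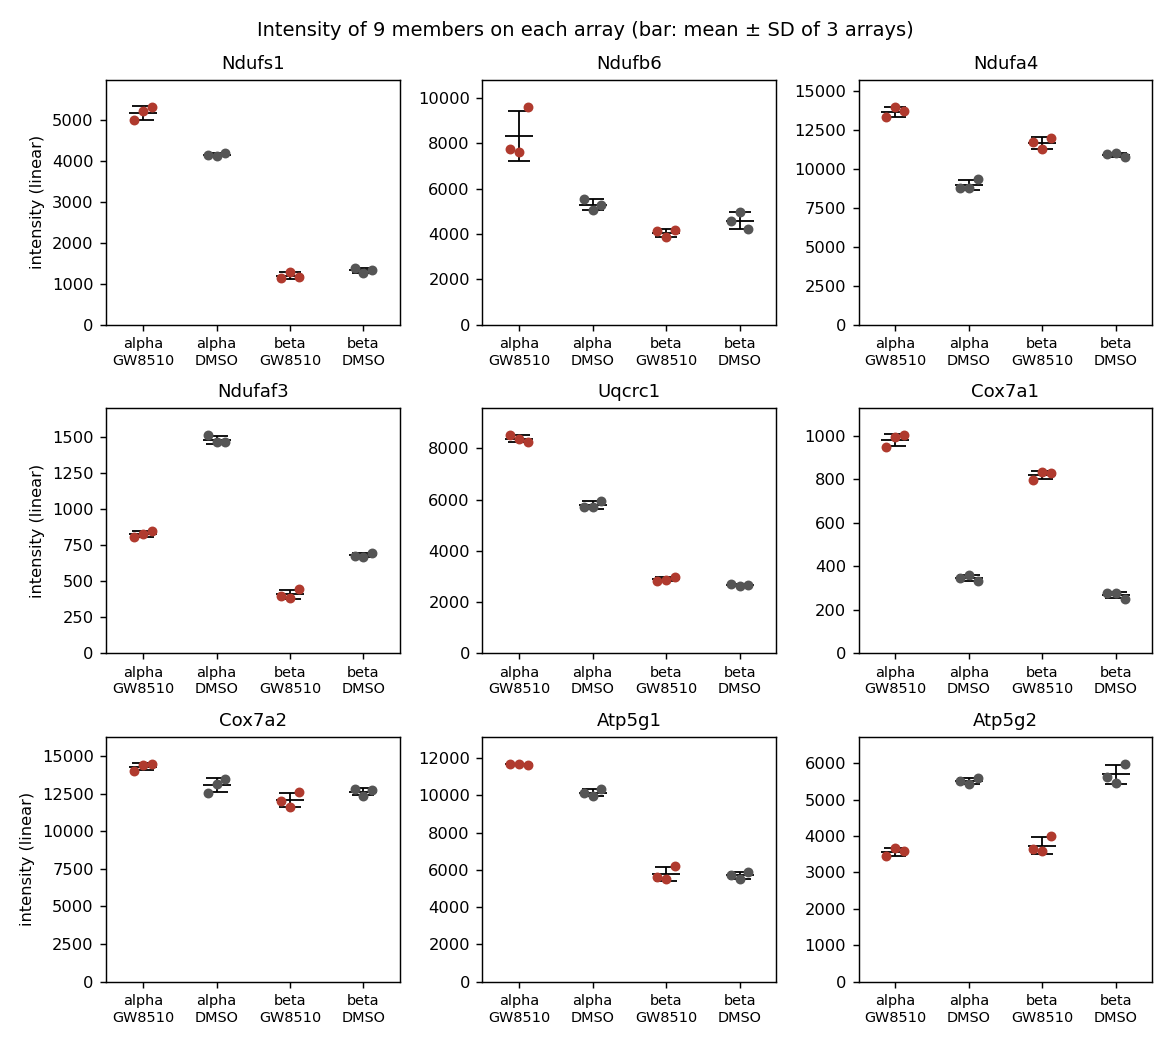
Intensity of 9 members on each array (linear vertical axis from 0; red, GW8510; grey, DMSO), with the mean ± SD of 3 arrays per group. Cox7a1 is raised by GW8510 and Ndufaf3 and Atp5g2 are lowered in both lines, Ndufb6, Ndufa4 and Uqcrc1 are raised in alpha cells, and Ndufs1 is high in alpha cells under both conditions.

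Other complex IV subunits come in pairs of a common form and one tied to a tissue. Cox4i1 and Cox6b1, the common forms of subunits IV and VIb, rose in alpha cells (both 0.29) and in beta cells (0.14 and 0.17), and Cox4i1's rise in beta cells did not pass after a further quantile normalization or without any 1 of 4 of the 6 beta arrays (both GW8510 and DMSO replicate 1, GW8510 replicate 2 and DMSO replicate 3). Their highest arrays, with GW8510 in alpha cells, read 19249 and 19447, close to the limit. The lung form Cox4i2, the muscle form Cox8b and the testis form Cox8c read between 101 and 255 on all arrays and did not pass in either line. Cox6b2, the testis form of VIb, was dim too, with 163, 143 and 145 with GW8510 and 104, 94.5 and 101 with DMSO in alpha cells, and rose there (0.59 ± 0.15). Cox6a2 rose in beta cells, where it read 423, 428 and 535 with GW8510 and 317, 308 and 334 with DMSO (0.52 ± 0.09), and read 268.8 to 280.4 against 235.1 to 272.4 in alpha cells (0.10, not past the test). Cox7c, a common subunit, was read by dim probe sets only, at most 67.3 on any array, so that its rise in alpha cells (0.51) lies near the lower limit of 20.

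Most ATP synthase genes did not pass in either line, 14 of 17 in alpha and 15 of 17 in beta cells (7127 of 12205 and 8011 of 12194 among all genes). The exceptions were Atp5g1, Atp5g2 and Atp5o in alpha cells and Atp5g2 and Atp5d in beta cells. In the fit over all probe sets, other bright probe sets passed too. They were those of Atp5j2 in both lines (0.26 and 0.14), Atp5pb and Atp5d in alpha cells (0.20 and 0.17) and Atp5a1 and Atp5o in beta cells (-0.22 and -0.32). The probe sets used for Atp5a1 in alpha cells (0.12) and Atp5pb in beta cells (-0.13) also passed there, so that these calls depended on probe set and fit. Atp5g1 and Atp5g2, with Atp5g3, encode 1 mature subunit c behind different import sequences. Atp5g2 read 3456, 3670 and 3587 with GW8510 and 5508, 5427 and 5583 with DMSO in alpha cells, and 3638, 3579 and 4003 against 5631, 5464 and 5981 in beta cells. The treated arrays were lower throughout, with log2 fold changes of -0.62 ± 0.06 and -0.61 ± 0.06 (adjusted p = 3.3e-06 and 1.03e-05 by limma). Atp5g1 rose in alpha cells, at 11608 to 11691 against 9963 to 10343 (0.20), and did not pass in beta cells (0.02). Atp5g3 read 20000, the upper limit, against 18818 to 18909 in alpha cells. Its change there (0.08, not past the test) is a lower bound, and the limit may have kept it from passing. In beta cells Atp5g3 read 13845 to 14826 against 13512 to 14457 (0.03, not past the test). Atp5d, the delta subunit of the head, rose in beta cells, at 8435 to 8684 against 6240 to 6654 (0.40), and Atp5o, a stalk subunit, rose in alpha cells (0.18).

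The difference of the responses, alpha minus beta, was then tested as an interaction. It was positive for 19 of 81 members (23.5%), against 12.2% of all genes tested, and negative for 4 (4.94%), against 16.8%, with a median of 0.14 against -0.05. Among 371 other genes within the middle range of the members' intensities, the difference was positive for 15.9% and negative for 18.1%. Without beta GW8510 replicate 3 it was positive for 33 members and negative for 4. Genes with complex I symbols, Ndufa4 included, made up 13 of the 19, which is 38.2% of the 34 measured. None of the 14 genes with complex IV symbols, which leave out Ndufa4, and of the 16 ATP synthase genes measured was among them, few genes beside a share of 12.2% of all genes. The largest were Ndufb6 (0.83 ± 0.13, adjusted p = 0.000492 by limma), Ndufaf5 (0.68 ± 0.10), Ndufb2 (0.60 ± 0.08) and Ndufa4 (0.51 ± 0.07), followed by Sdha and Ndufs1 (both 0.47). The negative ones were Ndufv3 (-0.55 ± 0.08, adjusted p = 0.000267 by limma), Cox6a2 (-0.42), Atp5d (-0.32) and Sdhd (-0.22), of which Cox6a2 lost its call without any 1 of 5 arrays (alpha DMSO replicates 2 and 3, alpha GW8510 replicate 3 and beta DMSO replicates 1 and 2) and Sdhd without any 1 of 8 (all but alpha GW8510 replicate 1, beta GW8510 replicates 2 and 3 and beta DMSO replicate 3). The other probe set of Atp5d, also bright, gave -0.16 and did not pass in the fit over all probe sets (adjusted p = 0.142 by limma).

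For Cox7a1 the difference was -0.11 ± 0.08 (adjusted p = 0.394 by limma) and for Atp5g2 -0.02 ± 0.08 (adjusted p = 0.91). A miss of the threshold does not show that the lines responded alike, and the standard errors bound only wide differences. Across the 83 members measured in both lines, whose arrays the responses do not share, Pearson's r of the log2 fold changes was 0.67 and Spearman's rho 0.39, against 0.38 and 0.41 over 12148 genes. These are descriptions across genes, which are not independent replicates, and Cox7a1 lies far out on both axes. Both lines had a rise for 7 members, against 9.17% of all genes, and a fall for 5, against 9.16%. A rise in alpha with a fall in beta cells was found for 3 (1.19% of all genes), and the reverse for 1 (2.49%). The 3 were Ndufa9, Ndufab1 and Ndufb2. For Ndufab1, which also counts among the complex I rises, another probe set had the opposite sign in alpha cells.

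**Figure D5:**
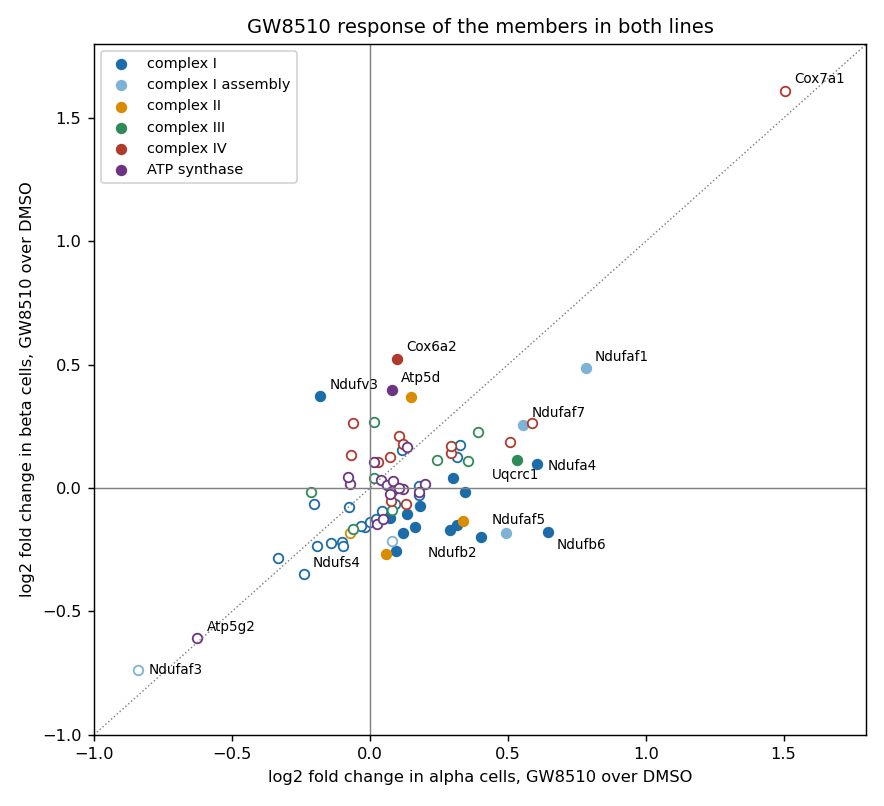
Log2 fold change with GW8510 over DMSO in alpha cells (horizontal axis) and beta cells (vertical axis) for the 83 members measured in both, colored by complex. Filled points passed the test of the difference between lines, and the dotted line marks equal responses; Cox7a1, Ndufaf3 and Atp5g2 lie near it and Ndufb6 and Ndufa4 to its right.

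Other mitochondrial genes were taken from lists written from general knowledge. With DMSO, where 29.2% of all genes were higher in alpha cells and 27.1% lower, alpha cells were higher than beta cells for 54 of 74 mitochondrial ribosomal proteins and lower for 11, for 14 and 3 of 17 TCA cycle enzymes, for 16 and 4 of 21 protein translocases and for 18 and 4 of 29 assembly factors. Citrate synthase (Cs), which opens the TCA cycle, differed by 0.88 and fumarase (Fh1) by 1.26. Of 21 regulators of mitochondrial gene expression 16 were higher and 3 lower. The widest was Ppargc1a, a coactivator of NRF1, GABP and ERRα target genes, which averaged 3511 with GW8510 and 3873 with DMSO in alpha cells, against 26.5 and 26.8, near the lower limit of 20, in beta cells. It did not pass the test of GW8510 against DMSO in either line (-0.14 and -0.03).

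With GW8510, 37 of 74 mitochondrial ribosomal proteins rose and 9 fell in alpha cells, and 20 rose and 12 fell in beta cells. As shares these were 50.0% and 12.2% in alpha cells, where 20.3% of all genes rose and 21.4% fell, and 27.0% and 16.2% in beta cells, nearer the 19.8% and 14.5% of all genes. Of the TCA cycle enzymes 9 of 17 rose (52.9%) and 2 fell (11.8%) in alpha cells, and 5 rose and 5 fell (29.4% each) in beta cells. Of 29 assembly factors 14 rose (48.3%) and 11 fell (37.9%) in alpha cells, and 7 rose (24.1%) and 8 fell (27.6%) in beta cells. Among them, Tmem70, which acts for the ATP synthase and complex I, rose in alpha cells, at means of 4998 with GW8510 and 2004 with DMSO (1.32), against 591 and 561 in beta cells (0.08, not past the test). Pet100, which acts in complex IV assembly, fell in both lines (-0.79 and -0.88). Of the 21 regulators 5 rose (23.8%) and 7 fell (33.3%) in alpha cells, and 5 rose (23.8%) and 3 fell (14.3%) in beta cells. Esrra (ERRα) and Polrmt, the mitochondrial RNA polymerase, rose in alpha cells (0.81 and 0.80) and in beta cells (0.31 and 0.20). Gabpa, a subunit of GABP, fell in both (-0.61 and -0.45), and Tfb1m and Nrf1 fell in alpha cells (-0.65 and -0.50).

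Of 8 mitochondrial genes linked to the hypoxia factor HIF, 1 rose (12.5%, against 20.3% of all genes) and 5 fell (62.5%, against 21.4%) in alpha cells, and 5 rose (62.5%, against 19.8%) and 0 fell (against 14.5%) in beta cells. Bnip3, a mitophagy receptor, averaged 3660 with GW8510 against 11465 with DMSO in alpha cells (-1.65), and 6527 against 2809 in beta cells (1.22). Pdk1, a kinase that holds back pyruvate dehydrogenase, went the same ways (-1.42 and 1.07), and the differences between lines were -2.87 for Bnip3 and -2.49 for Pdk1 (adjusted p = 4.03e-08 and 5e-07 by limma). Cytochrome c itself (Cycs), which links complexes III and IV, passed in neither line (0.16 and -0.17).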

How the data were processed

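The deposited values are array intensities on a linear scale for 22690 probe sets on 12 Affymetrix Mouse Genome 430A arrays. The submitters' processing notes name RMA, which corrects background, normalizes between arrays and summarizes probes; its version and the chip definition are not given in the sources used here. Values lie between 20 and 20000, limits taken to be the authors', which compress the brightest and dimmest genes. The log2 was taken with no pseudocount. The 20380 probe sets with 1 gene symbol gave 12393 genes, each read by the probe set with the highest mean, and 12251 were not at a limit on all arrays.

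The 4 groups were fitted together by limma 3.58.1 in R 4.3.3 (group means, contrasts, empirical Bayes), with Benjamini-Hochberg adjustment over all genes tested. The paper's text names no array test. Standard errors on the log2 scale had a median of 0.084, or 0.119 for the difference of responses, which 3 arrays per group set. Where a group lay at a limit, the fold is a lower bound, and none is given where both did. Comparisons that use the same arrays are not independent. The fit was tested on simulated arrays. Replicate numbers paired no arrays. Settings varied were normalization, choice of probe set, dim genes, arrays fitted, spread estimate, array weights, a pseudocount of 16, a replicate block and each array in turn. The members and lists were chosen with earlier results of these data known. Named members are those with the largest changes overall and per complex, the isoform pairs and those at the limit; others were named after their values were seen.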

Additional observations from a re-analysis of the deposited data

Results flagged for a closer look

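The response to GW8510 differed between the lines, by the test of the difference itself, for 23 members, and the 15 that stand among the largest or are named by the rule are given here as log2 differences, alpha minus beta. Positive differences were Ndufb6 0.83, Ndufaf5 0.68, Ndufb2 0.60, Ndufa4 0.51, Ndufs1 0.47, Sdha 0.47, Uqcrc1 0.42, Ndufv2 0.35, Sdhb 0.33, Ndufaf1 0.30 and Ndufaf7 0.30. Negative ones were Ndufv3 -0.55, Cox6a2 -0.42, Atp5d -0.32 and Sdhd -0.22, and that of Atp5d did not pass by its other bright probe set. Ndufaf1, Ndufaf7 and Sdhd rose in both lines and differed in the size of the rise. Ndufb2 rose in alpha and fell in beta cells, and Ndufv3 did the reverse.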

How the results depend on the processing

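Of 97 results for single members, 73 kept their direction and their side of the threshold under all of the 23 settings that applied, 23 lost a call at least once and 2 turned: Uqcrb in beta cells, to -0.16 both with probe sets without a suffix letter first and with probe sets that have no array above 15000, and Ndufa12 between lines with DMSO, to 0.15 with the mean of all probe sets and 0.09 with probe sets without a suffix letter first. Counts of members that moved by more than 1.5 times were these. A further quantile normalization gave 11 falls in alpha and 29 in beta cells. A trend in the prior with robust estimation gave 11 falls in alpha cells, 21 rises and 29 falls in beta cells and 34 positive differences of the responses. Array weights gave 28 falls in beta cells and 43 positive differences. Centring on array medians left 5 members lower in alpha cells with DMSO and 1 with GW8510, as did a fit of the compared groups alone with GW8510 (1), and it moved the median of all genes between lines to 0.14 with DMSO and 0.11 with GW8510. The causes were not tested. Without 1 array at a time the ranges were 25 to 27 rises and 5 to 7 falls in alpha cells, 9 to 13 rises and 11 to 23 falls in beta cells, 14 to 33 positive and 2 to 6 negative differences, 54 to 58 members higher and 5 to 6 lower in alpha cells with DMSO and 63 to 70 higher and 2 to 5 lower with GW8510. Falls in beta cells numbered 11 without beta GW8510 replicate 1 and 12 without beta DMSO replicate 1, and positive differences 33 without beta GW8510 replicate 3. With the replicate number as a block the counts were 25 rises and 7 falls in alpha cells, 9 and 12 in beta cells, 14 positive and 3 negative differences, and 57 higher and 6 lower with DMSO and 64 higher and 4 lower with GW8510 between lines; arrays of the same number had deviations that correlated by -0.14 to 0.14. Signal near 20000 limits the brightest members and signal near 20 the dim isoforms.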
